A study of Mus musculus with 8 samples.

Results

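The genes described here are 44 interferon-stimulated genes, measured in macrophages sorted from mouse liver. They were chosen by symbol, as 32 genes usually induced by type I interferon and 12 interferon-inducible GTPases usually induced by interferon gamma, and all 44 were found among the 35906 genes of the count data. The mice were BALB/c wild types given vehicle (4 libraries) or carbon tetrachloride, CCl4 (4 libraries), a hepatotoxin used to produce liver fibrosis. The sources used here do not give its dose or the length of treatment. Livers were perfused and digested with collagenase, hepatocytes were spun down, and live CD45+ F4/80+ cells (CD31- by the series' design text) were sorted by flow cytometry. RNA was amplified with a SMART-Seq kit before library preparation. The labels do not say that each library came from its own mouse, so the p-values measure the spread between these libraries, which may be technical. Values per library are given in the order 1 to 4, as CPM, the read counts scaled to library size with TMM factors. Levels of different genes are compared as TPM, which also accounts for transcript length. All 44 genes passed the filter on low counts, so the main test leaves none of them out.

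Interferons are secreted signals of infection and inflammation. Type I interferons act through the receptor chains encoded by Ifnar1 and Ifnar2 and a complex of transcription factors, IRF9 among them, that binds a DNA element called the ISRE. Interferon gamma, made mainly by T cells and natural killer cells, acts through the products of Ifngr1 and Ifngr2 and leads to binding at an element called GAS. The proteins made in response bind or modify viral RNA, block virus entry, or, in the case of the guanylate-binding proteins (GBPs) and immunity-related GTPases (IRGs), attack the vacuoles that enclose microbes. Liver macrophages, above all the resident Kupffer cells, meet microbial products arriving with portal blood and express many of these genes.

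Most of the interferon-inducible GTPases fell in the CCl4 libraries, and most of the type I genes did not pass the test. Of the 12 GTPases, 7 fell and 0 rose at an adjusted p under 0.05 by edgeR's quasi-likelihood test over 15212 genes. Over all genes tested 6.26% were lower in CCl4, 8.93% were higher and 15.2% were called in either direction. All 12 GTPases had a negative log2 fold change, with a median of -0.79 against -0.03 over all genes. Of the 32 type I genes, Ifitm3 fell and Oas3 rose, while 30 did not pass. That share, 1 of 32 in each direction, lies below the share called over all genes, so the counts alone say nothing about the type I genes as a group. Their median log2 fold change was -0.30, and 27 of 32 were negative. Whether the 2 classes differed from each other was not tested.

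**Figure D1:**
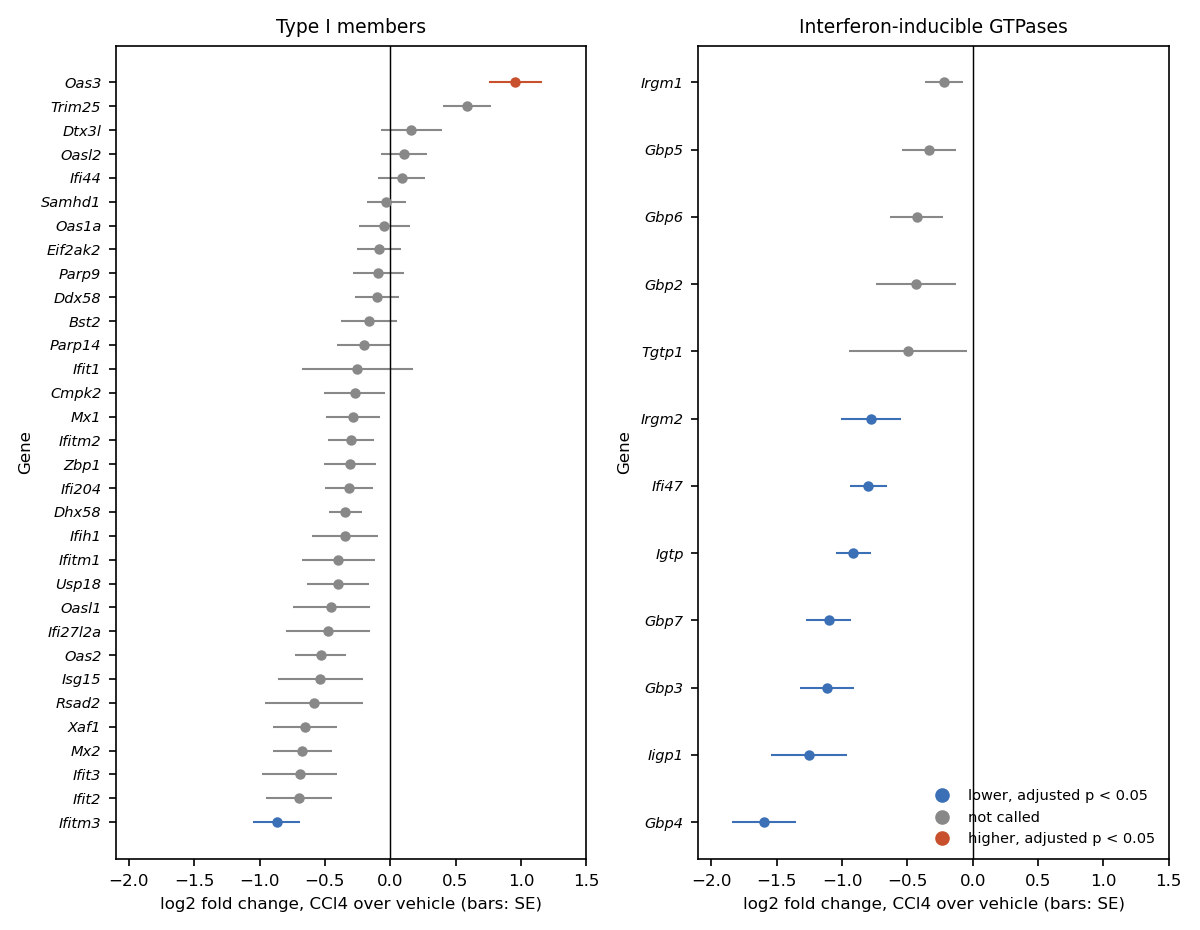
Log2 fold change of CCl4 over vehicle for each gene (points, edgeR; bars are 1 SE), with the 32 type I genes on the left and the 12 GTPases on the right, each in order of size. All GTPases lie left of 0, from -0.22 (Irgm1) to -1.60 (Gbp4), and the type I genes run from -0.87 (Ifitm3) to 0.96 (Oas3).

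The scaling of the libraries changed the calls among the type I genes and not the number of GTPases called. With library totals alone the median of all genes shifted to -0.16, and with upper-quartile factors to -0.12. Relative to all genes, the GTPase median was -0.76 under the main scaling, -0.77 with library totals and -0.76 with upper-quartile factors, and 7 of 12 were called lower each time. For the type I genes the relative median was -0.27, -0.29 and -0.30, but the calls became 5 lower and 1 higher with library totals, and 5 lower and 2 higher with upper-quartile factors. Over all genes the split was 1358 higher and 953 lower in the main test and 1082 higher and 1431 lower with library totals. The replicates also weighed on the type I median, which was -0.18 without vehicle 1, -0.20 without vehicle 2 and -0.15 without vehicle 2 and CCl4 4 together. The GTPase median stayed between -0.73 and -0.84 when any 1 library was removed.

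Each library held between 19489104 and 26196063 estimated counts. Vehicle 2 and CCl4 4 stood apart, with summed RNA of olfactory and vomeronasal receptors, the genes of smell in the nasal epithelium, at 3132 and 3072 CPM against 611 to 1553 CPM in the other 6 libraries. These receptor sums were scaled to library totals alone, without TMM factors. The genes of the sorted proteins, Adgre1 (F4/80) and Ptprc (CD45), and the macrophage receptor gene Csf1r were present in every library and 0 of the 3 were called, although Csf1r was 1652 CPM in vehicle 2 and 4507 to 4705 in the other vehicle libraries. Mitochondrial genes took 3.97, 5.31, 3.16 and 1.91% of the counts in the vehicle libraries and 0.932, 1.16, 0.763 and 0.900% in the CCl4 libraries. Every CCl4 library was thus below every vehicle library in this share, and its part in the results on the GTPases and the type I genes was not tested. Markers of several liver cells moved with the treatment. Kupffer cell markers were lower for 7 of 8 genes (16440 to 24990 CPM summed in vehicle, 6191 to 11560 in CCl4), and endothelial markers for 7 of 9 (608 to 964 against 213 to 344). Monocyte markers were higher for 2 of 6 (81.8 to 144.8 CPM against 251 to 446) and neutrophil markers for 4 of 9 (42.4 to 102 against 87.8 to 344). T and natural killer cell markers, from the cells that make interferon gamma, were called for 0 of 12 tested (44.3 to 93.2 CPM against 59.6 to 90.6), and plasmacytoid dendritic cell markers for 0 of 7 (94.8 to 109 against 116 to 165). B cell markers were lower for 1 of 5 (65.9 to 104 against 37.1 to 71.5), hepatocyte markers for 1 of 8 (3772 to 5615 against 3902 to 6094), and stellate cell markers were higher for 2 and lower for 3 of 7 (114 to 496 against 142 to 293). The hepatocyte sum was mostly Trf (transferrin), at a mean of 4875 CPM in vehicle and 4613 in CCl4, whereas Alb (albumin) was at 51.1 and 29.6. No listed marker gene was at 0 in all libraries. In sorted bulk RNA, fewer cells of a type and less RNA per cell cannot be told apart, and the part of these cell types in the results below was not tested.

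**Figure D2:**
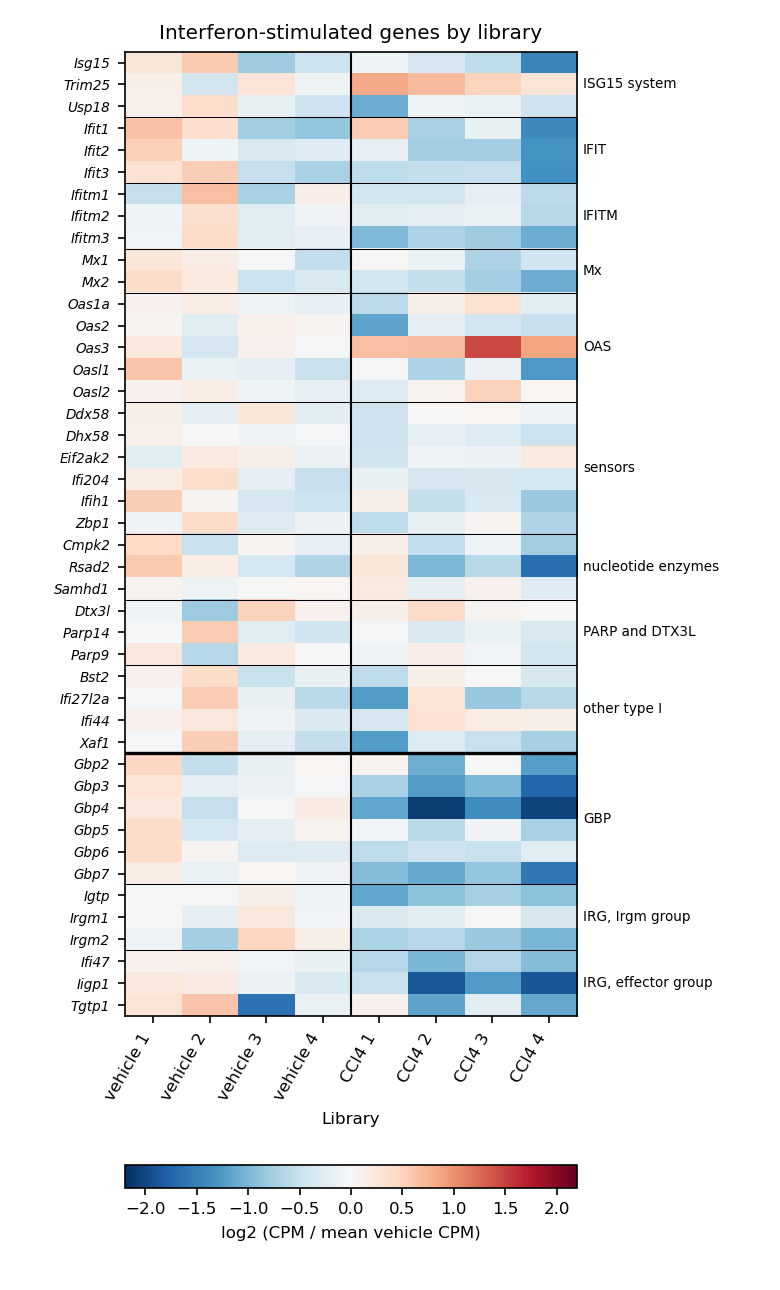
Each gene (rows, grouped by protein family) in each library (columns) as log2 of its CPM over the mean CPM of the 4 vehicle libraries, blue for lower and red for higher. Most cells of the GBP and IRG rows at the bottom are blue in the CCl4 columns, down to -2.09 for Gbp4 in CCl4 2, while the type I rows show both colours in both groups.

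The promoters of several of the 44 genes carry the elements named above. The sequences printed set genes that fell (Igtp, Irgm2, Gbp7 and Gbp3) and one that rose (Oas3) beside genes that did not pass the test (Tgtp1, Irgm1, Isg15 and Ifit1). Promoter windows from 250 bases before to 50 bases after the start came from RefSeq (mouse GRCm38.p6, the assembly that mm10 denotes, from a C57BL/6J mouse and not BALB/c) and were found for 31 of the 44 genes. They were searched for the ISRE core GAAANNGAAA, in either strand (TTTCNNTTTC), and for the GAS element TTCNNNGAA, which reads alike on both strands. Matches were allowed to overlap, as the GAS and ISRE matches of Bst2 and Ifitm3 do. Each line below holds the 120 bases before the start, 5' to 3' on the gene's strand, with the matched letters in capitals.

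Igtp, chr11:58199436-58199555, plus strand: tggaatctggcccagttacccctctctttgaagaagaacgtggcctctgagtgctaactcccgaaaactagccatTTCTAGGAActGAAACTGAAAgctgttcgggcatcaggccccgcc
Irgm2, chr11:58214857-58214976, plus strand: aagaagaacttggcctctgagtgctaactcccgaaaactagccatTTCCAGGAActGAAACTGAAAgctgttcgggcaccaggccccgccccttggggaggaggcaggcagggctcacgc
Tgtp1, chr11:48992247-48992366, minus strand: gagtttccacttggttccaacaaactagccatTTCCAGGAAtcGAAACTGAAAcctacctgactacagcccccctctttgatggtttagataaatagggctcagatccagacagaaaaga
Gbp7, chr3:142530216-142530335, plus strand: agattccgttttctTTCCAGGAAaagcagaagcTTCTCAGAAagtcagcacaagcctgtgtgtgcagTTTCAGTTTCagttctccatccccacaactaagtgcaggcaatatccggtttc
Gbp3, chr3:142559924-142560043, plus strand: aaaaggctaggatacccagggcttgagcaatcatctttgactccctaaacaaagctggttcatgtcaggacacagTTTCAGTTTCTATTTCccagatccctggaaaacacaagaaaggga
Irgm1, chr11:48871421-48871540, minus strand: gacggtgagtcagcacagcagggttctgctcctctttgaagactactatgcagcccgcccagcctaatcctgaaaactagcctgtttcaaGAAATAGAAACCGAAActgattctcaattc
Isg15, chr4:156200819-156200938, minus strand: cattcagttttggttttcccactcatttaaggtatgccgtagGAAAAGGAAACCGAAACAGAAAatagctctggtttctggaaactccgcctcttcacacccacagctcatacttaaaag
Ifit1, chr19:34640769-34640888, plus strand: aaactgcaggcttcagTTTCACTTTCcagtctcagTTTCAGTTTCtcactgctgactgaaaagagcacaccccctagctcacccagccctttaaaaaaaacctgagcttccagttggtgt
Oas3, chr5:120777660-120777779, minus strand: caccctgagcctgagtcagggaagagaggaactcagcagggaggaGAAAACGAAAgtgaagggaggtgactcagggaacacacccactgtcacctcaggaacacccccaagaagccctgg

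Igtp, Irgm2 and Tgtp1 share an arrangement in which the GAS match begins 11 bases upstream of the first base of the ISRE match. The ISRE match began 34 bases before the start in Igtp, 64 in Irgm2 and 77 in Tgtp1. Igtp and Irgm2 are neighbours on chromosome 11, and their windows share an identical run of 55 bases, which lies upstream of the bases printed. Irgm2 and Tgtp1 shared a run of 20 bases that covers the GAS match, and Igtp and Tgtp1 one of 14 bases that reaches into it. Gbp7 holds 2 GAS matches upstream of its ISRE match, whereas Gbp3, Irgm1, Isg15, Ifit1 and Oas3 hold ISRE matches and no GAS match in the window. In all, the ISRE core was found in 8 of 9 GTPases and 12 of 22 type I genes with a window, against 4.0% of all 27025 genes with one. The GAS letters were found in 5 of 9 GTPases and 6 of 22 type I genes against 9.6% of all genes. Both together were found in 5 of 9 and 4 of 22 against 0.5%. Gbp5, Gbp7, Igtp, Irgm2 and Tgtp1 were the 5 GTPases with both. Matches occurred both in genes that fell and in genes that did not pass: Gbp5 and Irgm1 hold matches and did not pass the test, while Ifi47 passed it and holds neither set of letters in its window.

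The GBPs are large GTPases that coat microbes and vacuoles and trigger their lysis. Gbp2, Gbp3, Gbp5 and Gbp7 lie in a cluster on chromosome 3 and Gbp4 and Gbp6 in another on chromosome 5. Gbp4 fell the most. It measured 140.0, 83.6, 117 and 135 CPM across the vehicle libraries against 54.0, 28.0, 46.4 and 29.0 across the CCl4 libraries. Each CCl4 library was below each vehicle library, and the log2 fold change was -1.60 (SE 0.24, n = 4 per group, edgeR adjusted p = 0.00110), a 3.03-fold lower level. Gbp3 measured 149.7, 107, 112 and 119 CPM across the vehicle libraries against 74.1, 52.2, 61.8 and 36.9 across the CCl4 libraries. The groups did not overlap, vehicle 1 was highest and CCl4 4 lowest, and the log2 fold change was -1.12 (SE 0.21, n = 4 per group, edgeR adjusted p = 0.00372). Its neighbour Gbp7 measured 161, 129, 147 and 136 CPM across the vehicle libraries against 73.6, 65.8, 79.1 and 48.2 across the CCl4 libraries. Gbp7 fell by a similar amount, -1.10 (SE 0.17, n = 4 per group, edgeR adjusted p = 0.00114), again with no overlap. Over all genes, 9.49% had every CCl4 library below every vehicle library, and among the 12 GTPases this held for 6. In the FPKM data the call of Gbp7 was lost (adjusted p = 0.0508 with a pseudocount of 1, 0.0688 with 0.1 and 0.239 with no filter), as was that of Gbp3 with no filter (adjusted p = 0.136). The log2 differences there were -0.80, -0.97 and -0.80 for Gbp7 and -0.75 for Gbp3, and Gbp7 was called when FPKM was scaled to depth.

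The other GBPs were lower on average and did not pass the test. Gbp2 measured 69.4, 35.1, 44.9 and 52.2 CPM across the vehicle libraries against 53.0, 23.8, 50.5 and 21.8 across the CCl4 libraries. CCl4 1 and 3 lay within the vehicle range and CCl4 2 and 4 below it, with a log2 fold change of -0.44 (SE 0.31, n = 4 per group, edgeR adjusted p = 0.401). Gbp5, which promotes inflammasome activation, measured 75.6, 44.1, 49.4 and 60.4 CPM across the vehicle libraries against 54.9, 37.9, 54.5 and 35.2 across the CCl4 libraries. Its groups overlapped as well, with -0.33 (SE 0.21, n = 4 per group, edgeR adjusted p = 0.334). Gbp6, at a low level, measured 13.9, 11.0, 8.54 and 8.64 CPM across the vehicle libraries against 7.12, 7.65, 7.47 and 8.99 across the CCl4 libraries, and its log2 fold change was -0.43 (SE 0.20, n = 4 per group, edgeR adjusted p = 0.188). In CCl4 4 it reached the level of the lower vehicle libraries. Gbp6 has a near-identical neighbour, Gbp10, with which kallisto may share reads. Gbp6 and Gbp10 summed, an alternative chosen after the data were seen, fell by 0.59 on the log2 scale (edgeR adjusted p = 0.0381). Gbp10 was called lower on its own. Gbp5 and Gbp6 were called lower under 3 and 4 of their 22 alternatives, for Gbp6 the sum among them.

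Gbp4 calls for care with the read assignment. Its annotated exons overlap those of Gbp8 and Gbp9 on the same strand, and the deposited FPKM table lists Gbp4 at or near 0 in every library, at most 0.113 FPKM. In the deposited transcript tables, between 95.6% and 98% of the estimated counts of Gbp4 belong to the transcript Gbp4-202. The FPKM of Gbp4 was above 0.001 in vehicle 4 and CCl4 1 alone, the only libraries with more than 1 estimated count for the transcript Gbp4-201 (83.8 and 34.1). The sources used here do not say how the FPKM table was summarised, and Gbp4 was not called from it. Gbp8, chosen after its values were seen, also fell, to a 1.99-fold lower level (edgeR adjusted p = 0.00587). Gbp9, the other overlapping gene, had a log2 fold change of -0.15 and was not called (edgeR adjusted p = 0.587).

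Of the IRGs, the Irgm group (Irgm1, Irgm2 and Igtp, which encodes Irgm3) restrains the other IRGs on the cell's own membranes. Igtp measured 50.0, 50.7, 55.7 and 47.8 CPM across the vehicle libraries against 23.0, 27.3, 30.7 and 27.4 across the CCl4 libraries. The vehicle libraries lay close together, all 4 CCl4 libraries were lower, and the log2 fold change was -0.91 (SE 0.13, n = 4 per group, edgeR adjusted p = 0.000827). Irgm2 measured 23.2, 14.9, 34.7 and 27.5 CPM across the vehicle libraries against 15.4, 16.3, 14.2 and 12.6 across the CCl4 libraries. Vehicle 2 lay below CCl4 1 and 2, so the groups overlapped, and the log2 fold change was -0.78 (SE 0.23, n = 4 per group, edgeR adjusted p = 0.0392). The call held under 8 of 22 alternatives, among them the summing of other genes' copies, which left the counts of Irgm2 unchanged. It was lost when any library other than vehicle 2 was left out (adjusted p 0.0618 to 0.126), and in the FPKM data, where the log2 difference was -0.24 with a pseudocount of 1. Irgm2 and Igtp have overlapping exons on the same strand, so their reads may be shared. Irgm1, the most abundant GTPase per length among those that did not pass, measured 58.9, 51.3, 70.8 and 57.5 CPM across the vehicle libraries against 48.1, 50.6, 59.8 and 46.7 across the CCl4 libraries. Its groups overlapped, with a log2 fold change of -0.22 (SE 0.15, n = 4 per group, edgeR adjusted p = 0.371), the smallest among the GTPases.

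The effector IRGs load onto microbial vacuoles and break them. Iigp1, which encodes Irga6, measured 77.3, 74.7, 60.2 and 52.5 CPM across the vehicle libraries against 47.4, 18.1, 27.8 and 17.9 across the CCl4 libraries. CCl4 1 lay just under the lowest vehicle library and the other 3 well below, and the log2 fold change was -1.25 (SE 0.29, n = 4 per group, edgeR adjusted p = 0.0128). Ifi47 (Irgd) measured 63.6, 64.6, 57.0 and 53.0 CPM across the vehicle libraries against 38.5, 29.7, 38.1 and 30.7 across the CCl4 libraries. The groups did not overlap, and the log2 fold change was -0.80 (SE 0.14, n = 4 per group, edgeR adjusted p = 0.00289). Igtp, Iigp1 and Ifi47 were called lower under all 22 alternative settings. Tgtp1 (Irgb6), the lowest of the 44 genes per length, did not pass the test. It ranged from 1.54 to 7.34 CPM in vehicle and from 2.13 to 5.09 in CCl4, with a log2 fold change of -0.50 (SE 0.45, n = 4 per group, edgeR adjusted p = 0.533). Most reads of this pair were assigned to its near-identical copy Tgtp2, which measured 117, 153, 105 and 88.2 CPM across the vehicle libraries against 45.0, 31.9, 46.5 and 36.5 across the CCl4 libraries. Tgtp2 fell without overlap, with -1.54 (SE 0.19, n = 4 per group, edgeR adjusted p = 0.000337). Tgtp1 and Tgtp2 summed, an alternative chosen after the data were seen, gave 121 ± 29.1 CPM in vehicle and 43.3 ± 8.29 in CCl4 (SD, n = 4 each) and fell by 1.48 on the log2 scale (SE 0.20; edgeR adjusted p = 0.000515). With such copies summed, 9 of the 12 GTPases were lower, the additions being the sums that hold Tgtp1 and Gbp6. The copies Tgtp2 and Gbp10 were called lower on their own, so these additions do not show a fall of Tgtp1 or Gbp6. The share over all genes was not counted under this alternative.

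**Figure D3:**
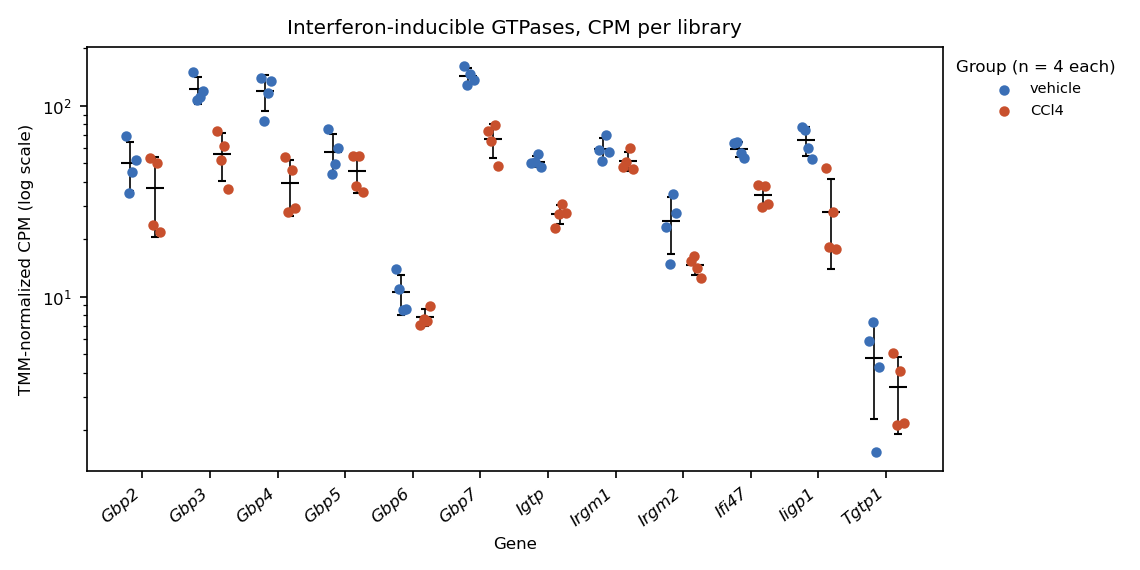
TMM-normalized CPM of the 12 GTPases on a log axis, with 1 point per library (blue vehicle, red CCl4) and the mean with its SD in black. Vehicle and CCl4 points separate fully for Gbp3, Gbp4, Gbp7, Igtp, Ifi47 and Iigp1 and overlap for the other 6.

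Summed over the 12 genes, GTPase RNA was 889, 673, 759 and 754 CPM across the vehicle libraries against 494, 359, 474 and 317.5 across the CCl4 libraries. The means were 769 ± 89.0 and 411 ± 86.3 CPM (SD, n = 4 each), and the groups did not overlap. Vehicle 1 was the highest of the 8 libraries for 7 of the 12 genes and CCl4 4 the lowest for 7, counts not made over all genes. The fall ran beside that of the Kupffer cell markers and beside higher monocyte and neutrophil markers, while T and natural killer cell markers summed to similar ranges in both groups; the part of these cells was not tested. Without vehicle 2 and CCl4 4, the libraries that stood apart, 7 GTPases were still called lower and the median was -0.81.

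Among the type I genes, the IFITM proteins sit in membranes and block virus entry. Ifitm3 was the most abundant of the 44 genes per length, at a mean of 1769 TPM in vehicle and 958 in CCl4. It measured 581, 799, 508 and 538 CPM across the vehicle libraries against 311, 379, 355 and 285 across the CCl4 libraries. The groups did not overlap, and the log2 fold change was -0.87 (SE 0.18, n = 4 per group, edgeR adjusted p = 0.00691), called under all 22 alternatives. Its neighbour on chromosome 7, Ifitm2, was second in abundance and measured 438, 595, 388 and 438 CPM across the vehicle libraries against 388, 398, 419 and 305 across the CCl4 libraries. There the groups overlapped, with -0.30 (SE 0.17, n = 4 per group, edgeR adjusted p = 0.294). Ifitm1 was low, had a log2 fold change of -0.40 and did not pass. Kupffer and endothelial cell markers were lower in the same libraries, in the ranges given above, and their part in the fall of Ifitm3 was not tested. The promoter window of Ifitm3 holds 2 ISRE core matches and a GAS match after the start site.

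The OAS proteins make the messenger 2'-5' oligoadenylate on binding double-stranded RNA, which activates RNase L, and Oas3 went the other way from most of the genes. It measured 37.0, 24.6, 33.9 and 31.1 CPM across the vehicle libraries against 50.4, 51.0, 86.8 and 58.1 across the CCl4 libraries. Every CCl4 library was above every vehicle library, CCl4 3 highest, and the log2 fold change was 0.96 (SE 0.20, n = 4 per group, edgeR adjusted p = 0.00730), a 1.94-fold higher level. Of all genes, 13% had every CCl4 library above every vehicle library, and Oas3 was the 1 gene of the 44 for which this held. The call was lost in the FPKM data with a pseudocount of 1 (adjusted p = 0.0504, and 0.124 with no filter). Its neighbours on chromosome 5 did not pass the test, Oas2 with a log2 fold change of -0.53 (edgeR adjusted p = 0.0916; called lower under 5 of 22 alternatives) and Oas1a with -0.05. Oasl2 was at 0.11 and did not pass either. Oasl1, which represses translation of Irf7 RNA, measured 1293, 759.5, 724 and 603 CPM across the vehicle libraries against 821, 528, 769 and 354 across the CCl4 libraries. Vehicle 1 stood well above the other vehicle libraries, the groups overlapped, and the log2 fold change was -0.45 (SE 0.29, n = 4 per group, edgeR adjusted p = 0.358).

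The genes most used as reporters of a type I response did not pass the test, which does not show that they were unchanged. Isg15, a ubiquitin-like modifier, measured 81.1, 101, 39.4 and 48.7 CPM across the vehicle libraries against 63.1, 52.5, 45.9 and 25.0 across the CCl4 libraries. Vehicle 3 and 4 lay below CCl4 1 and 2, and the log2 fold change was -0.53 (SE 0.32, n = 4 per group, edgeR adjusted p = 0.314). Ifit1, whose protein binds viral RNA caps, measured 187, 155, 70.3 and 66.7 CPM across the vehicle libraries against 177, 72.9, 107 and 45.5 across the CCl4 libraries. It varied more between libraries of a group than between groups, with -0.25 (SE 0.42, n = 4 per group, edgeR adjusted p = 0.757). Mx1, from a family of genes for dynamin-like GTPases, measured 24.1, 22.4, 19.7 and 13.8 CPM across the vehicle libraries against 20.3, 18.1, 12.5 and 14.7 across the CCl4 libraries. Its groups overlapped, with -0.29 (SE 0.21, n = 4 per group, edgeR adjusted p = 0.420). Under 3 of 22 alternatives, all in the FPKM data, Mx1 was called lower. Rsad2 (viperin), which makes a chain-terminating nucleotide, measured 1185, 894, 611 and 504 CPM across the vehicle libraries against 957, 403, 520.0 and 251 across the CCl4 libraries. CCl4 1 lay above 3 of the 4 vehicle libraries, and the log2 fold change was -0.58 (SE 0.38, n = 4 per group, edgeR adjusted p = 0.354). Ifi27l2a measured 222, 334, 203 and 152 CPM across the vehicle libraries against 97.1, 280.0, 128 and 148 across the CCl4 libraries, with overlap and -0.48 (SE 0.32, n = 4 per group, edgeR adjusted p = 0.374).

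**Figure D4:**
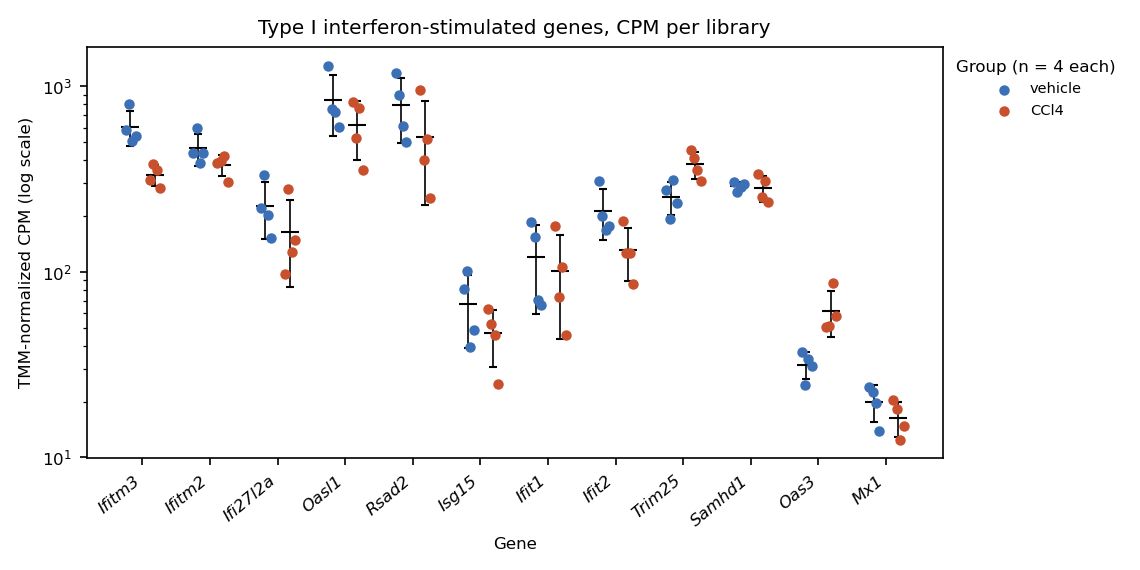
TMM-normalized CPM of 12 type I genes on a log axis, with 1 point per library (blue vehicle, red CCl4) and the mean with its SD in black. The groups separate for Ifitm3, lower in CCl4, and Oas3, higher in CCl4, and overlap for the other 10.

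The remaining type I genes are given by family. In the ISG15 system, the protease gene Usp18 had a log2 fold change of -0.40, and Trim25, an E3 ligase in the RIG-I pathway, one of 0.59 (SE 0.19, n = 4 per group, edgeR adjusted p = 0.0540). Trim25, chosen for closer description after its values were seen, measured 254 ± 51.6 CPM in vehicle and 382 ± 63.2 CPM in CCl4 (SD, n = 4 each) and was called higher under 7 of 22 alternatives. Ifit2 and Ifit3 were at -0.70 and -0.69 (edgeR adjusted p = 0.0892 and 0.135), and Mx2 was at -0.67 (edgeR adjusted p = 0.0683). Ifit2 and Mx2 were called lower under 6 of 22 alternatives each. The sensors and effectors of viral nucleic acid, Ddx58 (RIG-I), Ifih1 (MDA5), Dhx58 (LGP2), Zbp1, Eif2ak2 (PKR) and Ifi204, lay between -0.34 and -0.09, and 0 of the 6 passed. Of these, only Dhx58 had groups that did not overlap, with every CCl4 library lower, which held for 9.49% of all genes. Dhx58 was called lower under 2 of 22 alternatives. Samhd1, which degrades deoxynucleotides, was at -0.03 and Cmpk2, a mitochondrial nucleotide kinase, at -0.27. Parp9, Parp14 and Dtx3l, which work in ADP-ribosylation, ranged from -0.20 to 0.16. Parp9 and Dtx3l overlap on opposite strands, and no strand-marking step is named, so reads from the stretch they share cannot be told apart. Bst2 (tetherin), Ifi44 and Xaf1 were at -0.16, 0.09 and -0.65. No type I gene other than Ifitm3 and Oas3 passed.

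Several of these genes varied from library to library inside a group, and the families differed in which libraries were high. For the IFIT genes, the median log2 ratio to the vehicle mean was 0.53, 0.37, -0.51 and -0.72 across the vehicle libraries against -0.19, -0.72, -0.51 and -1.34 across the CCl4 libraries. Vehicle 1 and 2 were thus high and CCl4 4 low. Parp9, Parp14 and Dtx3l instead had medians of -0.04, -0.62, 0.22 and -0.001 across the vehicle libraries. Over the 32 type I genes, vehicle 1 was the highest of the 8 libraries for 10 genes, vehicle 2 for 12, and CCl4 4 the lowest for 14. Vehicle 2 was also the lowest vehicle library for 7 of the 32. Such counts were not made over all genes. CCl4 1 was divided, being the highest CCl4 library for 13 genes, among them Ifit1, Ifit2, Rsad2 and Oasl1, and the lowest for 11, among them Ifi27l2a, Oas2, Xaf1 and Usp18. The median SD of log2 CPM was 0.39 for type I genes and 0.30 for GTPases among vehicle libraries, and 0.32 and 0.33 among CCl4 libraries. Summed type I RNA was 6291, 5716, 4480.0 and 4111 CPM across the vehicle libraries against 4791, 4089, 4383 and 3041 across the CCl4 libraries, with overlapping groups.

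The interferons and the genes that carry their signal were examined from lists of the same pathway. Ifnb1 measured 16.4, 16.3, 5.50 and 13.3 CPM across the vehicle libraries against 8.93, 5.92, 4.39 and 2.57 across the CCl4 libraries. It was named after its values were seen, its groups overlapped, and its log2 fold change of -1.24 (SE 0.40, n = 4 per group, edgeR adjusted p = 0.0573) did not pass, although it was called lower under 10 of 22 alternatives. Ifng was near the filter limit, from 0.316 to 1.32 CPM in vehicle and from 0.226 to 1.46 in CCl4, with an edgeR adjusted p of 0.734. The other 8 interferon genes listed did not pass the filter on low counts. Of 14 receptor and signalling genes, 2 fell and 1 rose, where 6.26% of all genes were lower and 8.93% higher. Counts this small say little about the list as a group. Irf1, an interferon-induced transcription factor that acts on GBP genes, measured 492, 297, 553 and 497 CPM across the vehicle libraries against 194, 317, 275 and 201 across the CCl4 libraries. Vehicle 2 lay inside the CCl4 range, and the log2 fold change was -0.90 (SE 0.23, n = 4 per group, edgeR adjusted p = 0.0198).

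Irf3, which drives interferon beta transcription, measured 43.8, 48.2, 48.4 and 43.4 CPM across the vehicle libraries against 29.5, 33.0, 36.1 and 24.9 across the CCl4 libraries. It was lower without overlap, with -0.57 (SE 0.14, n = 4 per group, edgeR adjusted p = 0.0191). Ifngr2, a chain of the interferon gamma receptor, averaged 107 ± 8.68 CPM in vehicle (SD, n = 4), with vehicle 1 highest at 119.8, against 198, 175, 199.5 and 149.8 CPM across the CCl4 libraries. Ifngr2 rose without overlap, with 0.75 (SE 0.14, n = 4 per group, edgeR adjusted p = 0.00419), while its partner Ifngr1 was at -0.03 (edgeR adjusted p = 0.921). Of the type I receptor chains, named after their values were seen, Ifnar1 had 0.78 and did not pass (edgeR adjusted p = 0.0616; called higher under 9 of 22 alternatives), and Ifnar2 had -0.05 (edgeR adjusted p = 0.863). Stat2, Irf9, Irf7 and Irf8 did not pass, at -0.26, -0.30, -0.39 and 0.11. The calls of Irf1 and Irf3 each held under 16 of 22 alternatives and that of Ifngr2 under 19.

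Other genes of the pathway moved in both directions. Of 13 nucleic acid sensors and adaptors tested, 2 rose and 0 fell. Ikbke, a kinase that activates IRF3, measured 37.0, 19.4, 34.7 and 26.1 CPM across the vehicle libraries against 106, 72.8, 96.7 and 68.1 across the CCl4 libraries, with 1.55 (SE 0.22, n = 4 per group, edgeR adjusted p = 0.000772). Tlr8, an endosomal receptor, measured 30.1, 10.9, 37.7 and 30.1 CPM across the vehicle libraries against 51.4, 48.9, 64.8 and 57.7 across the CCl4 libraries, with 1.03 (SE 0.29, n = 4 per group, edgeR adjusted p = 0.0356). Both rose without overlap between the groups. Of 8 enzymes and inhibitors of the ISG15 and receptor signalling pathways, 0 passed. Of 47 other interferon-induced genes, 12 fell and 2 rose, with a median of -0.30. Together the 84 genes tested outside the 44 had 14 lower and 5 higher, with a median of -0.20, where 6.26% and 8.93% of all genes were lower and higher. The call of Ikbke held under 21 of 22 alternatives and that of Tlr8 under 12.

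The 6 of these 47 with the smallest p all fell. Tgtp2 is described above. Psmb9, a subunit of the immunoproteasome, measured 114, 139, 114 and 121 CPM across the vehicle libraries against 74.3, 71.3, 82.6 and 59.0 across the CCl4 libraries, with -0.76 (SE 0.15, n = 4 per group, edgeR adjusted p = 0.00428). Cxcl10, a chemokine for activated T cells, measured 231, 222, 216 and 158 CPM across the vehicle libraries against 78.0, 126, 75.4 and 45.6 across the CCl4 libraries, with -1.35 (SE 0.26, n = 4 per group, edgeR adjusted p = 0.00507). In both, each CCl4 library was below each vehicle library. Ifi205 measured 107, 89.2, 58.4 and 50.7 CPM across the vehicle libraries against 39.3, 19.1, 15.7 and 11.6 across the CCl4 libraries and changed by -1.83 (SE 0.36, n = 4 per group, edgeR adjusted p = 0.00523). Nmi, an interferon-induced adaptor, measured 35.2 ± 5.89 CPM in vehicle and 19.8 ± 2.54 CPM in CCl4 (SD, n = 4 each), and Epsti1 measured 31.0 ± 2.02 CPM in vehicle and 15.4 ± 4.83 CPM in CCl4 (SD, n = 4 each). Their log2 fold changes were -0.83 and -1.01 (edgeR adjusted p = 0.00434 and 0.00552), also without overlap.

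**Figure D5:**
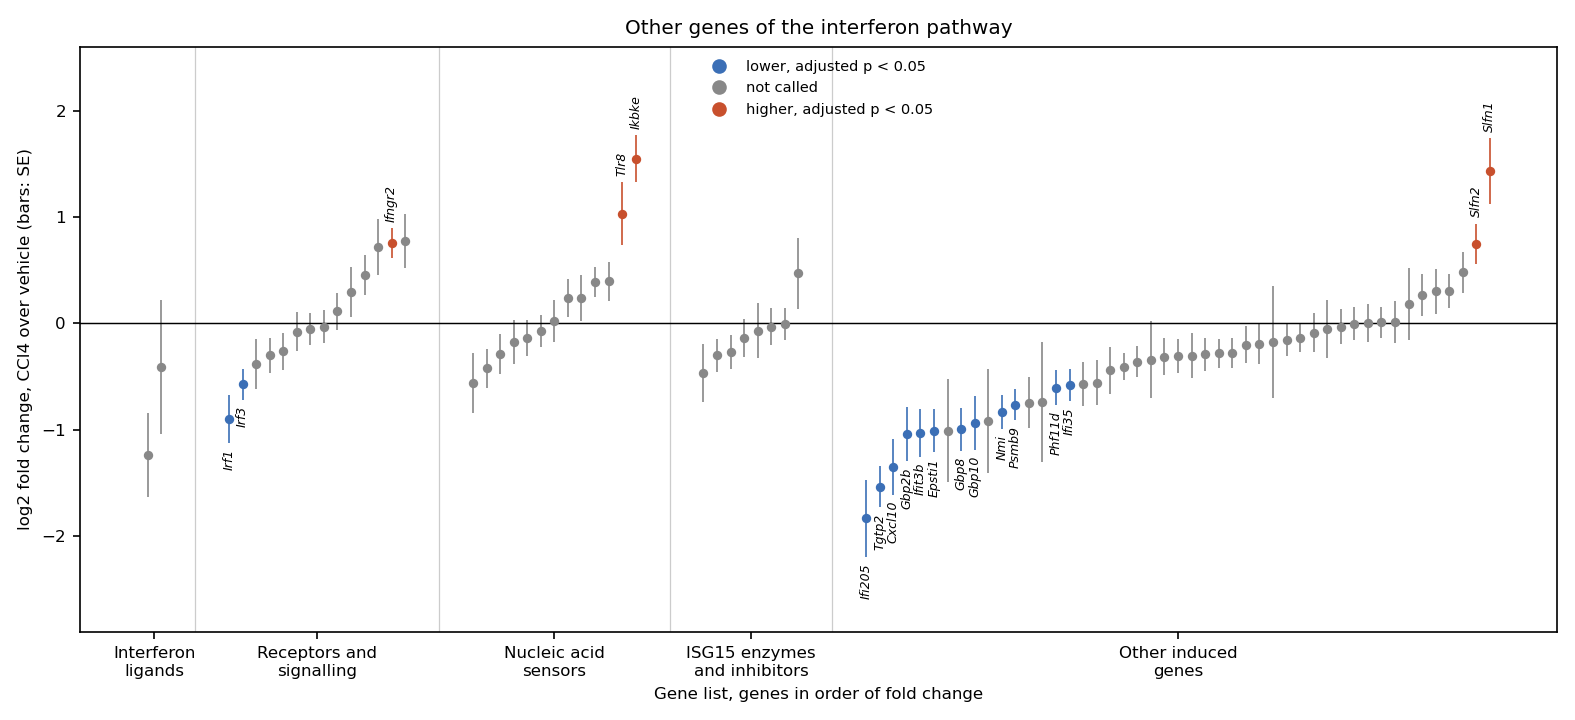
Log2 fold change of CCl4 over vehicle (points, edgeR; bars are 1 SE) for the 84 tested genes of the pathway outside the 44, by list and in order of size, with the called genes named. Among 47 other induced genes 12 are lower and 2 higher, and among signalling genes Irf1 and Irf3 are lower and Ifngr2 higher.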

How the data were processed

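RNA was measured in 8 libraries. The submitters' processing notes name kallisto, edgeR, limma and mm10, without versions or what each tool did. The authors deposited, per library, kallisto estimated counts and TPM for 117494 transcripts, and 1 FPKM table of 29956 genes, whose FPKM values followed the estimated counts without scaling to depth (0.981 to 1.003 relative, 8360 genes with over 100 counts). Of the transcripts, 116405 matched GENCODE M21, and the rest held 0.29% to 0.313% of counts and were left out. Estimated counts were summed per gene and rounded. filterByExpr (minimum count 10, total 15) kept 15212 genes. CCl4 was compared with vehicle by edgeR 4.0.16 (R 4.3.3; glmQLFTest, two-sided, TMM, group as sole term), adjusted by Benjamini-Hochberg over all genes at 0.05. SE is the log2 fold change over the square root of F. In simulated counts (14907 genes, 200 changed) 60% were recovered at a log2 change of 1 and 92% at 2, with 5.59% false calls. Gene levels are TMM-normalized CPM.

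The genes and lists were chosen with earlier results of these data known. Values per library are given for genes that passed, for the 4 most abundant others of each class, for Isg15, Ifit1, Mx1, Irgm1 and Gbp2, and for up to 6 passing genes of each further list by smallest p. Alternatives were other scalings, filters, DESeq2 1.42.0, limma-voom 3.58.1, length-scaled TPM counts, FPKM (log2 with pseudocount 1 or 0.1, mean of at least 0.5 or no filter), a replicate block and left-out libraries. A further alternative summed near-identical copies (Tgtp1 with Tgtp2, Ifit3 with Ifit3b, Gbp6 with Gbp10). It counts among the 22, and for other genes it all but repeated the main test. The labels do not pair libraries by number. A gene of the pathway is not reported here. Kallisto shares reads between similar transcripts, so near-identical copies are uncertain.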

Additional observations from a re-analysis of the deposited data

Results flagged for a closer look

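In 88 groups of 4 libraries (44 genes, 2 groups), 3 held 1 library apart from the other 3 by Dixon's criterion, which chance alone gives in about 1 in 20 groups. Ifit3, an RNA-binding IFIT protein gene, was 44.7 CPM in CCl4 4, against 76.2 to 79.5 in the other CCl4 libraries. Oas2 was 86.5 CPM in vehicle 2, against 109 to 113 in the other vehicle libraries. Ifi204, a DNA sensor gene, was 45.4 CPM in CCl4 1, against 39.0 to 39.6 in the other CCl4 libraries. None of the 3 genes passed the test between groups. Vehicle 2 and CCl4 4 are also the libraries with the most receptor gene RNA, and whether that bears on Oas2 and Ifit3 was not tested.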

How the results depend on the processing

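Of 921 single-gene values under alternative settings, 862 kept their side of the threshold, 38 newly passed, 21 no longer passed and 0 reversed while called. Values that stayed uncalled could change direction, as for Parp14, at -0.20 in the main test and up to 0.49 under the alternatives. The GTPase count of 7 lower became 4 in unfiltered FPKM, and 5 and 6 in FPKM with pseudocounts of 1 and 0.1. It was 6 with limma-voom or length-scaled TPM counts and 6 to 7 with 1 library left out. Type I genes called higher (1) were 2 with upper-quartile factors, DESeq2, no filter, the stricter filter, limma-voom or without vehicle 2 and CCl4 4, where Trim25 joined Oas3, and 0 in FPKM with a pseudocount of 1, with or without the filter; leaving out 1 library gave 1 to 2 (2 without CCl4 4). Type I genes called lower (1) were 5 with library totals or upper-quartile factors, 3 with DESeq2, 3 and 2 in FPKM with pseudocounts of 1 and 0.1, 6 in FPKM scaled to depth (chosen after seeing the data), and 1 to 2 with 1 library left out (2 without vehicle 2, vehicle 3 or CCl4 1). Other pathway genes higher (5) were 8 with DESeq2, 3, 1 and 1 in FPKM (pseudocount 1, 0.1, unfiltered) and 3 to 6 with 1 library left out (3 without vehicle 4 or CCl4 1). Those lower (14) were 21 with library totals, 20 with upper-quartile factors and 17 with DESeq2. They were 9 in FPKM with a pseudocount of 0.1, 6 in unfiltered FPKM and 11 to 18 with 1 library left out. All genes higher (1358) were 535, 506, 340 and 661 in FPKM with pseudocount 1, 0.1, unfiltered and scaled to depth, and 1004 to 1503 with 1 library left out; all genes lower (953) were 1431 with library totals, 613, 539 and 359 in the first 3 FPKM settings, and 578 (without CCl4 1) to 1163. The cause of these changes was not tested, except that the filtered FPKM data hold 10 of the 12 GTPases.

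With the replicate block, 6 GTPases and 3 type I genes were lower, 1 type I gene was higher, 14 other pathway genes were lower and 7 higher, and 829 genes were lower and 1281 higher over all. Same-numbered libraries did not deviate together (correlations 0.0152, -0.241, 0.0387 and -0.169), and no vehicle library correlated best with its own number. Irgm2 was not called under the block (adjusted p = 0.0879), with limma-voom (0.0587) or with length-scaled TPM counts (0.0565). Tgtp1 and Gbp6 were at low levels, and both were called lower only as sums with a near-identical copy or in FPKM data. Those copies were called lower on their own.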

Other observations

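Among the other interferon-induced genes that passed, named here after their values were seen, 2 of the 5 Schlafen genes listed, Slfn1 and Slfn2, rose. Over all genes 8.93% were higher. Slfn2, which restrains immune cell proliferation, measured 537, 411, 395 and 429 CPM across the vehicle libraries against 900.1, 595, 874 and 611 across the CCl4 libraries, with a log2 fold change of 0.75 (SE 0.19, n = 4 per group, edgeR adjusted p = 0.0195). Slfn1 was at a low level, 1.64, 3.76, 1.58 and 2.48 CPM across the vehicle libraries against 7.22, 7.02, 6.25 and 5.04 across the CCl4 libraries, and had 1.43 (SE 0.31, n = 4 per group, edgeR adjusted p = 0.00913). Both were higher in every CCl4 library than in any vehicle library. Slfn4, Slfn5 and Slfn8 had -0.92, 0.01 and 0.30 on the log2 scale and did not pass (edgeR adjusted p = 0.249, 0.978 and 0.237). Of the further GBP genes listed, Gbp2b, Gbp8 and Gbp10 fell, while Gbp9 and Gbp11 did not pass (edgeR adjusted p = 0.587 and 0.444). Gbp2b measured 86.6, 52.5, 84.3 and 88.8 CPM across the vehicle libraries against 56.7, 27.3, 41.0 and 26.9 across the CCl4 libraries, with -1.04 (SE 0.26, n = 4 per group, edgeR adjusted p = 0.0174). Gbp10, at 5.62 ± 0.950 CPM in vehicle and 2.93 ± 0.607 in CCl4 (SD, n = 4 each), had -0.93 (SE 0.25, n = 4 per group, edgeR adjusted p = 0.0280). Ifit3b, a near-identical copy of Ifit3, was at -1.03 (edgeR adjusted p = 0.00955), whereas Ifit3 and Ifit3b summed were at -0.75 (adjusted p = 0.0899), past no threshold. Ifi35, whose protein binds that of Nmi, and Phf11d were lower, at -0.58 and -0.60 on the log2 scale (edgeR adjusted p = 0.0250 and 0.0278).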
